A study of Oryctolagus cuniculus with 4 samples.

Results

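Interleukins and their receptors were examined in single-cell RNA sequencing data from rabbit bladder mucosa. The members were all rows of the gene list whose symbol begins with IL and a digit, which gave 47 of 18475 rows, of which 9771 carry a symbol. They comprised 21 ligands, 21 receptors or receptor chains, and 5 antagonists or decoys. Droplet-based sequencing was carried out on 4 samples of adult New Zealand rabbits, with 1 library per sample. Injury_1 and Injury_2 were harvested 10 days after a focal resection removed the mucosa from part of the bladder wall, when new urothelium had just closed over the wound, and Normal_1 and Normal_2 came from unwounded bladder mucosa. No transgene, deletion or drug separated the groups, and the normal rabbits are not described as sham-operated. IL33 and IL6 have no row under their symbols and were not analysed here.

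Interleukins are secreted signals by which immune and tissue cells control inflammation and repair. IL-1 alpha and IL-1 beta bind the receptor IL1R1, which signals together with IL1RAP, while IL1RN blocks that receptor and IL1R2 takes up ligand without signalling. Members of the IL-6 family signal through the shared chain IL6ST (gp130), IL-7 sustains lymphocytes through IL7R, and IL1RL1 (ST2) is the receptor for the alarmin IL-33.

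After filtering, 4308 to 6081 cells per sample were kept, with medians of 4813.5 to 7186 unique molecular identifiers (UMIs, each counting 1 captured RNA molecule) per cell, and Normal_1 was the shallowest sample. Cells were clustered without the member genes, and clusters were named from marker genes, so that a class called macrophage-like or T cell-like is a cluster group with those markers. All 10 urothelial markers on the list had UMIs in the epithelial-like cells. A cluster led by DNASE1L3 and HLA-DRA, named by leading genes chosen after the data were seen, kept those genes as its name. Pairs of libraries shared 8 to 13 cell barcodes. Levels are counts per 1000000 UMIs (CPM) of a class in a sample, and they were compared between samples and classes, not between genes. Of the classes, 8 had at least 20 cells in every sample and were tested.

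IL1B and IL1A were detected at the highest counts, with 459583 and 126572 UMIs over all kept cells, and 20 of the 47 members were expressed, that is, had in at least 1 of the 8 classes a UMI in every sample and a mean of 10 CPM or more. IL12B, IL25 and IL26 had no UMI. The other members expressed in no class were IL15 (533 UMIs), IL22 (520), IL31RA (218), IL7 (193), IL1RL2 (176), IL20 (147), IL17RB (142), IL1RAPL2 (109), IL17RA (74), IL6R (71), IL13RA2 (59), IL12A (54), IL12RB2 (53), IL1RAPL1 (44), IL22RA2 (28), IL20RB (20), IL17F (17), IL13, IL17A and IL5 (8 each), IL21 (4), IL22RA1 and IL19 (3 each) and IL36A (2). For 15 of the 20 expressed members, the same class stood above the next one in all 4 samples, although an exact sign-flip permutation test over 4 samples cannot reach 0.05, since its smallest p is 2 of 16 sign assignments.

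**Figure D1:**
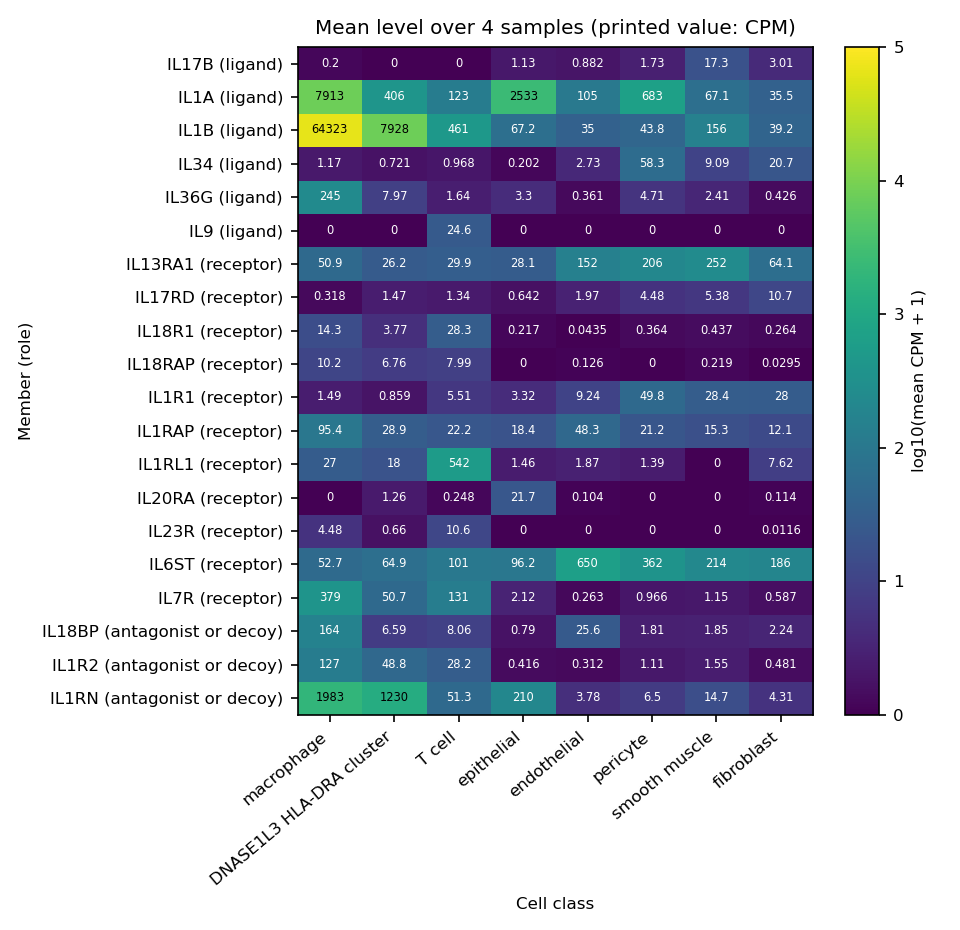
Mean level (CPM, n = 4 samples) of the 20 expressed members, with roles in parentheses (rows), in the 8 tested classes (columns), with colour on a log10 scale. IL1B peaks in the macrophage-like column at 64323 CPM, IL6ST in the endothelial-like column at 650.1 CPM and IL1RL1 in the T cell-like column at 542 CPM.

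Among the ligands, IL1B, the inflammatory cytokine that myeloid cells release on activation, was concentrated in the macrophage-like class. It reached 53533 and 53769 CPM in Injury_1 and Injury_2, and 65106 and 84884 CPM in Normal_1 and Normal_2. Both injured samples lay below both normal ones, but the difference did not pass the edgeR test (log2 difference -0.58 ± 0.23 SE, adjusted p = 0.432). Within this class, cluster 14 held 77385, 80126, 81328 and 95049 CPM of IL1B in Injury_1, Injury_2, Normal_1 and Normal_2, and cluster 12 held 33860, 30861, 46275 and 77943 CPM. The neutrophil-like cells, which were too few to test with 143, 50, 5 and 15 cells, held 56909, 54585, 196126 and 90220 CPM of IL1B. The next tested class was the DNASE1L3 HLA-DRA cluster, at 13290, 7230, 8256 and 2934 CPM.

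Over all kept cells, IL1B stood at 5074 CPM in Injury_1 and 3710 in Injury_2, against 1061 in Normal_1 and 1019 in Normal_2. The groups did not overlap, and the log2 difference was 2.06 ± 0.24 (SE), which missed the threshold in edgeR (adjusted p = 0.146). The macrophage-like class contributed 88.9% and 89.8% of the IL1B UMIs in the injured samples and 82.3% and 93.3% in the normal ones. That class itself made up 8.43% and 6.19% of all UMIs in the injured samples against 1.34% and 1.12% in the normal ones, and numbered 503, 361, 71 and 80 cells. In a sum over the whole sample, more cells of a type and more RNA per cell cannot be told apart.

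**Figure D2:**
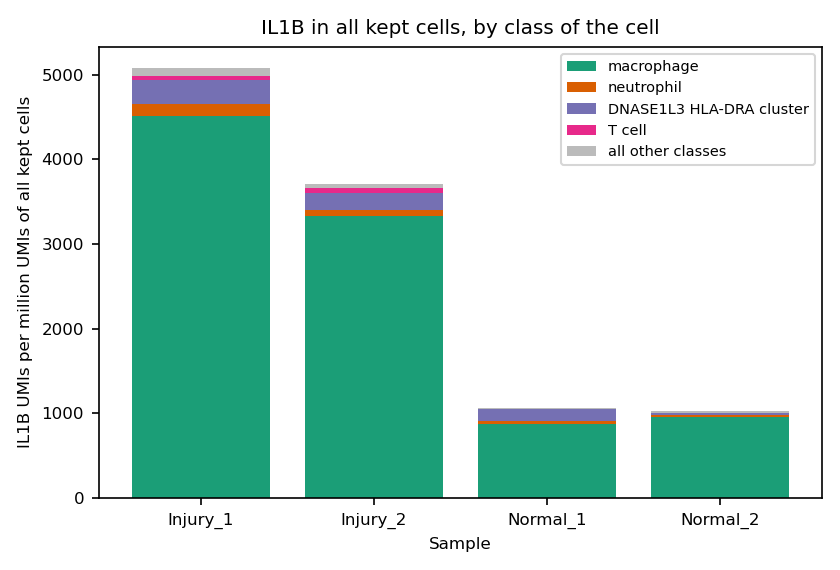
IL1B level in CPM of all kept cells (vertical axis) in each sample (bars, 1 library each), divided by the class of the cell. The macrophage-like part fills most of every bar, from 82.3% in Normal_1 to 93.3% in Normal_2.

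In fibroblast-like and endothelial-like cells, a low share of cells carried an IL1B UMI, and that share followed the sample. With each cell thinned to 1000 UMIs, the share in fibroblast-like cells was 5.52% and 2.68% in Injury_1 and Injury_2, and 0.67% and 1.18% in Normal_1 and Normal_2, and in endothelial-like cells it was 6.13%, 2.85%, 0.94% and 1.08%. Unthinned, the fibroblast-like shares were 32.3%, 18.0%, 3.24% and 7.58%, at median depths of 8013.5, 8541.5, 5093.5 and 7026 UMIs, and the endothelial-like shares were 29.3%, 15%, 3.73% and 6.10%, at 6415.5, 6309, 4656 and 6420 UMIs. The shares were alike in these unrelated classes, and whether such UMIs are background or expression was not tested. IL1B in these stromal classes is therefore not read as expression. A few cells also held most of the counts: in the smooth muscle-like class, 1 cell of Injury_2 carried 504 of 530 IL1B UMIs.

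**Figure D3:**
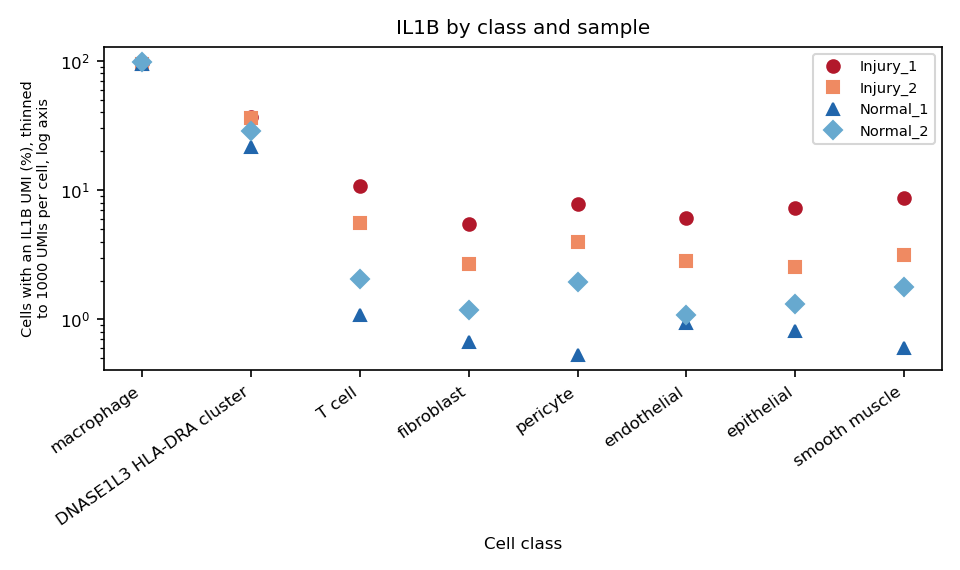
Share of cells with an IL1B UMI after thinning to 1000 UMIs per cell (vertical log axis, %) in the 8 tested classes, with 1 point per sample. Macrophage-like cells sit between 93.9% and 98.6%, and the 4 samples keep nearly the same order and level across fibroblast-like, pericyte-like, endothelial-like, epithelial-like and smooth muscle-like cells.

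IL1A, the IL-1 that epithelia keep as a ready store, was highest in macrophage-like cells at 8322 and 7999 CPM in Injury_1 and Injury_2, and 7448 and 7884 CPM in Normal_1 and Normal_2. Its next class was epithelial-like, at 3359, 1569, 2086 and 3117 CPM, where the groups overlapped. The share of all IL1A UMIs that came from epithelial-like cells was 39.6% and 26.4% in the injured samples and 72.6% and 57.4% in the normal ones, while macrophage-like cells gave 50.8% and 64.9% against 16.3% and 23.7%. In pericyte-like cells IL1A was 443 and 263 CPM in the injured samples and 754 and 1271 CPM in the normal ones, without overlap (log2 difference -1.52 ± 0.37 SE, edgeR adjusted p = 0.170). With single samples left out, that difference ran from -1.92 to -1.04. All 8 endothelial markers were also lower in this class in both injured samples (115 to 127 CPM summed, against 414 to 725 CPM), none at 0, and their part in the result was not tested.

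IL34, a ligand of the macrophage growth factor receptor CSF1R, was highest in stromal classes among the 8 tested. It stood in pericyte-like cells at 82.5 and 80.9 CPM in Injury_1 and Injury_2, and 26.4 and 43.3 CPM in Normal_1 and Normal_2, and in fibroblast-like cells at 27.1, 38.6, 9.11 and 7.92 CPM. In both classes the injured samples lay above the normal ones. The log2 difference was 2.07 ± 0.29 (SE) in fibroblast-like cells (edgeR adjusted p = 0.112) and 1.20 ± 0.31 in pericyte-like cells (edgeR adjusted p = 0.191), so that neither passed. With single samples left out, the log2 difference ran from 1.81 to 2.30 in fibroblast-like cells and from 0.887 to 1.68 in pericyte-like cells. The 6 fibroblast markers were higher in both injured samples in the pericyte-like class (9063 to 9396 CPM summed, against 2544 to 6778 CPM), none at 0, and their part in the result was not tested. In smooth muscle-like cells 35 UMIs were found in the injured samples and none in the normal ones, which is at least 12.4-fold higher against a floor of 3 counts over the group. The 6 fibroblast markers summed in this class to 9191 and 16795 CPM in the injured and 1467 and 12889 CPM in the normal samples. Of these markers, 1 was higher in both injured samples, and their part in the result was not tested. Glial-like cells, which were too few to test with 38, 47, 25 and 7 cells, held 139, 215, 15.7 and 0 CPM of IL34 in Injury_1, Injury_2, Normal_1 and Normal_2, from 23, 49, 1 and 0 UMIs. The counts were spread over many fibroblast-like cells: in Injury_2, 615 cells carried the 835 UMIs and no cell had more than 6.

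The remaining ligands were sparse or held by few cells. IL36G, an IL-1 family ligand of barrier inflammation, was found in macrophage-like cells at 198, 148, 187 and 448 CPM in Injury_1, Injury_2, Normal_1 and Normal_2, with overlapping groups. Its log2 difference there ran from -1.52 to -0.085 as single samples were left out. IL17B reached 4.75, 12.1, 42.6 and 9.62 CPM in smooth muscle-like cells, with overlapping groups. IL9, a cytokine of type 2 lymphocytes, was at 19.7, 15.3, 50.9 and 12.3 CPM in T cell-like cells and at 0 in the 7 other tested classes. Its log2 difference was -0.77 (edgeR adjusted p = 0.510), -1.40 without Normal_2 and 0.47 without Normal_1.

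IL22, a lymphocyte cytokine that acts on epithelia, had most of its UMIs in Normal_2. Its T cell-like level was 15.1 and 15.3 CPM in Injury_1 and Injury_2, and 0 and 531 CPM in Normal_1 and Normal_2. Of the 520 IL22 UMIs in the series, 432 lay in 27 T cell-like cells of Normal_2, where 1 cell held 196. The log2 difference was -4.17 (edgeR adjusted p = 0.426). It was -5.18 without Normal_1 and 7.99 without Normal_2, so that the direction for IL22 rests on which normal sample is used.

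Among the receptors, IL6ST was present in every tested class and highest in endothelial-like cells, at 699 and 665 CPM in Injury_1 and Injury_2, and 729 and 508 CPM in Normal_1 and Normal_2, where the groups overlapped. IL13RA1, a chain of the IL-4 and IL-13 receptor, was highest in smooth muscle-like cells at 197, 213, 416 and 185 CPM, followed by pericyte-like cells at 191, 191, 282 and 160 CPM. IL1R1 was highest in pericyte-like cells, at 52.9, 52.3, 54.0 and 39.9 CPM. In fibroblast-like cells IL1R1 stood at 51.3 CPM in Injury_1 and between 17.4 and 25.5 CPM in the other samples. Its partner IL1RAP was at 128, 115, 60.2 and 78.4 CPM in macrophage-like cells, with both injured samples above both normal ones (log2 difference 0.70 ± 0.29 SE, edgeR adjusted p = 0.436).

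**Figure D4:**
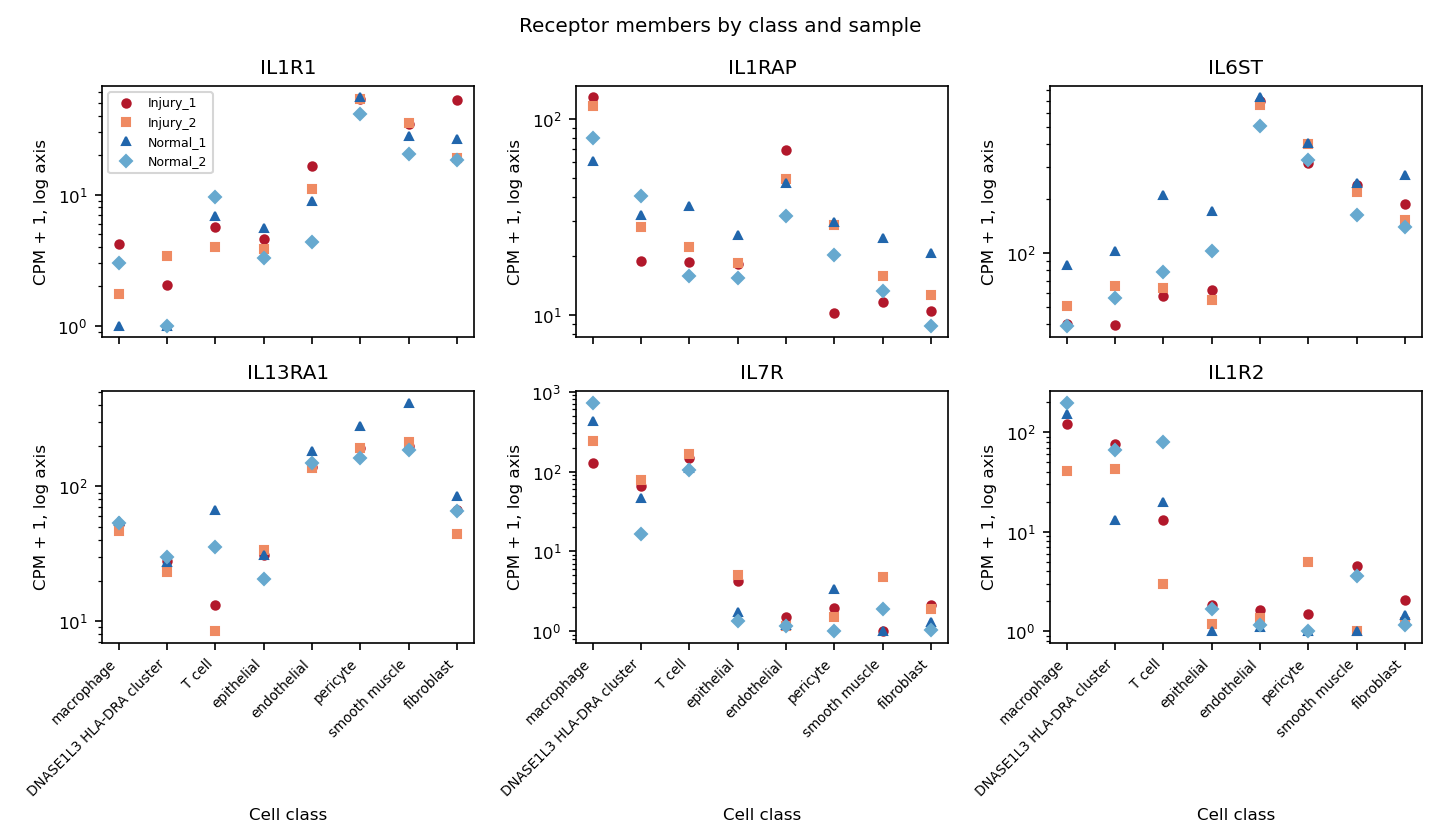
Level of 6 members (CPM + 1, log axis) in the 8 tested classes, with 1 point per sample. They are the receptors IL1R1, IL1RAP, IL6ST, IL13RA1 and IL7R and the decoy IL1R2. IL1R1 is highest in pericyte-like cells, between 39.9 and 54.0 CPM, and IL7R in macrophage-like cells, between 126 and 724 CPM.

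IL7R was highest on average in macrophage-like cells, above T cell-like cells in 3 of 4 samples, at 126 and 237 CPM in Injury_1 and Injury_2, and 430 and 724 CPM in Normal_1 and Normal_2. The injured samples lay below the normal ones, but the log2 difference of -1.76 ± 0.44 (SE) did not pass in edgeR (adjusted p = 0.294). That difference ran from -2.36 to -1.20 as single samples were left out. IL7R differed more widely in cluster 12, at 147, 306, 806 and 1080 CPM, while cluster 14 had 100, 158, 106 and 203 CPM. The 5 T cell markers summed to 64.7 and 76.1 CPM in injured and 42.1 and 80.4 CPM in normal macrophage-like cells, with THEMIS at 0 in the normal samples. In T cell-like cells IL7R was 146, 163, 109 and 104 CPM, again without overlap but in the opposite direction (log2 difference 0.56 ± 0.24 SE, edgeR adjusted p = 0.25).

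Some receptors, such as IL20RA, were detected mainly in 1 class. IL20RA, a receptor chain for IL-20 family ligands, was epithelial-like at 15.9, 14.1, 31.9 and 25.0 CPM in Injury_1, Injury_2, Normal_1 and Normal_2 (log2 difference -1.17 ± 0.27 SE, edgeR adjusted p = 0.0805). This difference ran from -1.20 to -1.11 as single samples were left out. IL23R was at 3.19, 6.44, 13.1 and 19.7 CPM and IL18R1 at 41.4, 42.6, 14.6 and 14.7 CPM in T cell-like cells. Macrophage-like cells held 32.5% of the IL23R UMIs and 21.1% of the IL18R1 UMIs. For each gene, the T cell-like level was above the macrophage-like one in 3 of 4 samples. Neither IL23R (log2 difference -1.82 ± 0.56 SE, edgeR adjusted p = 0.130) nor IL18R1 (1.54 ± 0.34, adjusted p = 0.0597) passed in T cell-like cells. IL17RD, a modulator of growth factor and IL-17 signalling, was at 9.43, 10.0, 7.11 and 16.4 CPM in fibroblast-like cells. IL17RB, a receptor chain for IL-25, was instead divided between classes. Mast cell-like cells, which were not tested, had 13, 24, 4 and 23 UMIs in 37, 41, 7 and 18 cells. T cell-like cells held 51 of its 142 UMIs.

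The antagonists and decoys were mostly myeloid. IL1RN, the natural antagonist of IL1R1, reached 2463 and 2030 CPM in Injury_1 and Injury_2, and 1481 and 1957 CPM in Normal_1 and Normal_2 in macrophage-like cells, and 1463, 1302, 1265 and 889 CPM in the DNASE1L3 HLA-DRA cluster. Both injured samples lay above both normal ones in these classes, and neither difference passed in edgeR. The decoy IL1R2 was at 120, 40.3, 150 and 197 CPM in macrophage-like cells (log2 difference -1.24 ± 0.49 SE, edgeR adjusted p = 0.438). Its log2 difference ran from -2.12 to -0.693 in these cells as single samples were left out. IL18BP, which binds and neutralises IL-18, was at 173, 189, 87.3 and 207 CPM there, with overlapping groups.

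Some classes too small to test held higher levels than any tested class, from few counts. In neutrophil-like cells IL1RAP stood at 1766, 924, 880.5 and 861 CPM in Injury_1, Injury_2, Normal_1 and Normal_2, from 193, 48, 4 and 10 UMIs, and IL1R2 at 531, 539, 220.1 and 1033 CPM, from 58, 28, 1 and 12 UMIs. IL1RN reached 2691, 4080, 4182 and 2066 CPM there, from 294, 212, 19 and 24 UMIs. The neutrophil-like level was also above every tested class on average for IL1B, IL1A, IL13RA1, IL18BP and IL36G, and the glial-like level for IL6ST, IL1RAP and IL34. For IL1A that average rested on the 5 neutrophil-like cells of Normal_1. In Injury_1, Injury_2 and Normal_2 the macrophage-like level of IL1A was the higher one. In mast cell-like cells IL1RL1 was at 309, 916, 592 and 449 CPM, from 20, 107, 9 and 14 UMIs. IL7, the lymphocyte survival factor, had 6 and 36 UMIs in the 28 and 52 lymphatic endothelial-like cells of the injured samples, and Normal_1 and Normal_2 had 0 and 9 such cells. A class called highest elsewhere in the text is the highest of the 8 tested.

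Between injured and normal samples, 31 members could be tested in at least 1 class, in 101 tests over the 8 classes. At an edgeR adjusted p under 0.05, 4 of these tests were higher and 3 lower in the injured samples, all in the T cell-like and epithelial-like classes. In T cell-like cells, 4 of 16 members tested rose and 1 fell, while 0.893% of all genes tested rose and 2.86% fell in that class. In epithelial-like cells, 0 of 11 rose and 2 fell, against 0.795% and 1.35% of all genes. The median log2 difference of the tested members was 0.13 in T cell-like and -0.38 in epithelial-like cells, beside -0.0090 and -0.0039 over all genes. In the other 6 classes no member passed: of all genes, 0.0% passed in either direction in fibroblast-like, endothelial-like and smooth muscle-like cells, 0.0825% rose and 0.0825% fell in macrophage-like cells, 0.156% rose and 0.415% fell in pericyte-like cells, and 0.0566% rose and 0.368% fell in the DNASE1L3 HLA-DRA cluster. In those 6 classes, in the order given, 7 of 20, 5 of 12, 4 of 9, 4 of 14, 4 of 10 and 1 of 9 members had an unadjusted edgeR p under 0.05, beside 10.8%, 6.53%, 4.77%, 11.1%, 9.93% and 11.1% of all genes tested. In T cell-like and epithelial-like cells it was 10 of 16 and 4 of 11 members, beside 21.0% and 20.4% of all genes. DESeq2, run on every gene with a UMI in the class, called 5 of 35, 2 of 33, 1 of 24, 0 of 30, 2 of 23 and 0 of 25 members in those 6 classes, beside 1.9%, 0.407%, 0.114%, 0.257%, 0.718% and 0.337% of all such genes. It called 4 of 36 members in T cell-like and 2 of 30 in epithelial-like cells, beside 2.42% and 4.02%. The same 4 samples entered each comparison, so the classes are not independent.

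In T cell-like cells, IL1RL1 rose from 313 CPM in Normal_1 and 193 in Normal_2 to 848 in Injury_1 and 814 in Injury_2. The groups did not overlap, and the log2 difference was 1.76 ± 0.28 (SE, edgeR adjusted p = 0.0381). These counts were spread over 190 cells of Injury_1 and 119 of Injury_2, against 35 and 16 cells in Normal_1 and Normal_2. Of all IL1RL1 UMIs in a sample, 73.7% to 87.7% came from this class. The log2 difference of IL1RL1 ran from 1.54 to 2.06 as single samples were left out. IL18RAP, the accessory chain of the IL-18 receptor, rose from 1 UMI in each normal sample to 60 and 24 UMIs in Injury_1 and Injury_2, a ratio of 11.5 with a 95% exact counting interval from 3.09 to 96.7 (edgeR adjusted p = 0.0464). The IL18RAP call held in 3 of 11 alternatives, with edgeR adjusted p from 0.000619 to 0.257, and was lost among others without Injury_2 (0.190) and without Normal_1 (0.0563). Averaged over the samples, IL18RAP was highest in macrophage-like cells, at 5.06, 11.8, 12.04 and 12.07 CPM in Injury_1, Injury_2, Normal_1 and Normal_2, where the difference did not pass (edgeR adjusted p = 0.784).

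IL1B in the same class rose from 11.6 CPM in Normal_1 and 16.0 in Normal_2 to 674 in Injury_1 and 1144 in Injury_2 (log2 difference 6.05 ± 0.46 SE, edgeR adjusted p = 0.0174). The counts lay in few cells: 8 of 679 cells in Injury_1 and 10 of 367 in Injury_2 had at least 10 IL1B UMIs each and held 88.6% and 97.4% of the total, and no cell of the normal samples had as many. Of these cells, 6 of 8 and 9 of 10 carried at least 2 UMIs of the macrophage markers, compared with 16 of 671 and 8 of 357 of the other T cell-like cells. IL1RN rose with it, from 5 and 0 UMIs in the normal samples to 218 and 272 in the injured ones (log2 difference 4.89 ± 0.90 SE, edgeR adjusted p = 0.0499). Cells with at least 10 IL1RN UMIs held 77.5% and 93.0% of the IL1RN counts in Injury_1 and Injury_2, and all 6 and all 10 of them carried macrophage markers. Without Normal_1 or Normal_2 the IL1RN call was lost, with edgeR adjusted p of 0.221 and 0.201.

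IL13RA1 fell in T cell-like cells, from 65.5 CPM in Normal_1 and 34.4 in Normal_2 to 12.2 in Injury_1 and 7.4 in Injury_2 (log2 difference -2.27 ± 0.42 SE, edgeR adjusted p = 0.0464). Without Injury_2 the adjusted p in edgeR was 0.0658. The endothelial markers, which are of another cell type that also expresses IL13RA1, moved the same way in this class: 7 of 8 were lower in both injured samples than in both normal ones, none was at 0, and their summed level was 241 to 248 CPM against 725 to 1485 CPM. Of the 10 macrophage markers, 4 were higher in both injured samples, MARCO was at 0, and the sum was 114 to 233 CPM against 40.8 to 86.0 CPM. Of the 5 T cell markers, 3 were also higher, with sums of 1169 to 1496 against 624 to 1023 CPM. Of the 10 epithelial markers, 5 were higher, and the sum was 246 to 256 against 50.4 to 146 CPM. KRT5, UPK3B and TP63 were at 0 in the normal samples. In an alternative chosen after the data were seen, cells with at least 2 UMIs of the macrophage or of the endothelial markers were removed, which took 6.48% and 8.17% of T cell-like cells of the injured samples and 25.2% and 13.0% of the normal ones. No member then passed in the T cell-like class, and neither did any other of the 4752 genes tested. Before the removal, 49 of 5485 genes rose and 157 fell in edgeR. IL1B had a log2 difference of 2.42 (edgeR adjusted p = 0.100), IL1RL1 1.27 (adjusted p = 0.141) and IL18RAP 2.71 (adjusted p = 0.138). IL1RN and IL13RA1 were too low to test. The part of these foreign markers in the results was not otherwise tested.

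In epithelial-like cells, IL20, an IL-10 family cytokine that acts on epithelia, fell from 18.6 CPM in Normal_1 and 7.56 in Normal_2 to 1.1 in Injury_1 and 1.96 in Injury_2. The counts behind these levels were 98 and 23 UMIs in the normal samples and 8 and 11 in the injured ones, of which 1 cell of Injury_2 held 10. The log2 difference was -3.32 ± 0.55 (SE, edgeR adjusted p = 0.0379). The call was lost without Injury_1 (adjusted p = 0.190 in edgeR), without Injury_2 (0.0725) and without Normal_1 (0.0577). IL20 was held mainly by cluster 13, at 36.1 and 11.8 CPM in the normal and 2.65 and 6.02 CPM in the injured samples, and cells divided differently between the clusters: cluster 9 had 387, 246, 213 and 63 cells and cluster 13 had 134, 90, 174 and 97 cells in Injury_1, Injury_2, Normal_1 and Normal_2.

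IL6ST fell in epithelial-like cells from 169 CPM in Normal_1 and 102 in Normal_2 to 60.7 in Injury_1 and 53.2 in Injury_2 (log2 difference -1.48 ± 0.25 SE, edgeR adjusted p = 0.0383). The injured samples were below the normal ones within cluster 9, at 44.9 and 48.7 against 85.3 and 62.3 CPM, and within cluster 13, at 88.6 and 62.4 against 266 and 121 CPM. Without Injury_1 or Injury_2 the adjusted p in edgeR was 0.265 and 0.249. With cells carrying macrophage or endothelial markers removed, which took 30.04% and 40.1% of the injured and 6.80% and 13.5% of the normal epithelial-like cells, both calls in this class held, at log2 differences of -1.61 for IL6ST (edgeR adjusted p = 0.0216) and -2.63 for IL20 (adjusted p = 0.0356). Of the 10 macrophage markers, 2 were higher in both injured samples in this class, and the sum was 70.7 to 89.5 against 15.2 to 58.5 CPM. MARCO was at 0 in all samples and MSR1 in the normal ones. Of the 8 endothelial markers, 4 were lower and 1 was higher in both injured samples, none was at 0, and the sum was 56.4 to 70.9 against 34.9 to 104 CPM; endothelial-like cells are the class with the highest IL6ST among those tested. Of the 4 neutrophil markers, 3 were higher in both injured samples, none was at 0, and the sum was 108 to 715 against 3.60 to 10.5 CPM. The part of the neutrophil markers in these results was not tested.

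**Figure D5:**
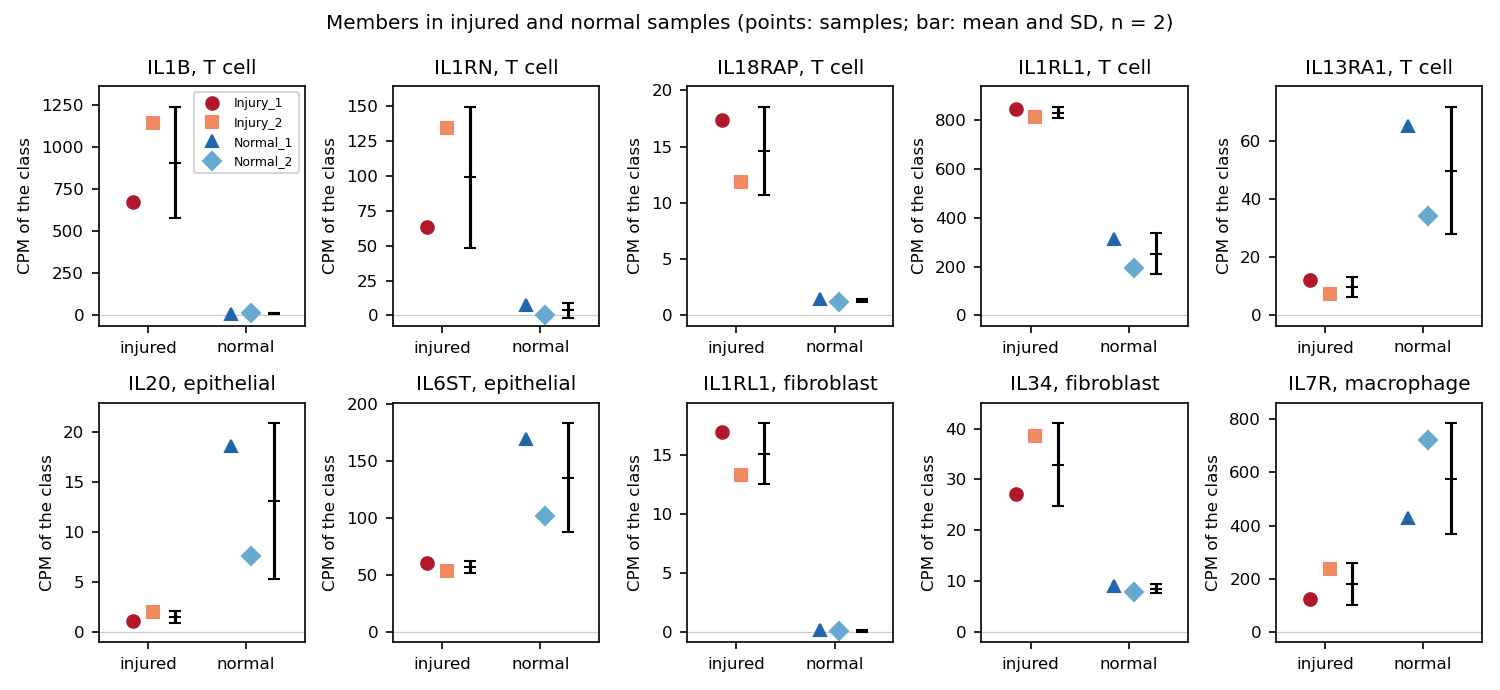
Level (CPM of the class) of 7 member and class pairs past the threshold and of 3 that were not (IL1RL1 and IL34 in fibroblast-like and IL7R in macrophage-like cells), with 1 point per sample and a bar for the mean and SD (n = 2). The injured and normal points are apart in every panel, as for IL6ST in epithelial-like cells at 53.2 and 60.7 against 102 and 169 CPM.

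In fibroblast-like cells, IL1RL1 had 288 UMIs in Injury_1 and 288 in Injury_2, against 1 UMI in Normal_1 and 1 in Normal_2. The ratio was 226 with a 95% exact counting interval from 62.4 to 1874, which covers counting error only. In edgeR the log2 difference was 7.74 ± 0.55 (SE) with an adjusted p of 0.0549, just outside the threshold. It ran from 6.71 to 8.35 as single samples were left out. The counts came from 59 of 2054 cells in Injury_1 and 55 of 2444 in Injury_2, and cells with at least 10 UMIs held 59.4% and 54.2% of them. Of the 5 T cell markers, 4 were higher in this class in both injured samples (5.32 to 15.7 CPM summed, against 2.01 to 2.78 CPM) and none was at 0. The 6 mast cell markers summed to 1.77 to 2.13 CPM against 2.14 to 2.93 CPM, with CPA3 at 0 in all samples and FCER1A and HPGDS at 0 in the normal ones. Their part in the result was not tested. IL1RL2, the receptor of the IL-36 ligands, had 73 and 52 UMIs in the injured against 2 and 2 in the normal samples in this class (log2 difference 4.58 ± 0.73 SE, edgeR adjusted p = 0.133). Its log2 difference ran from 3.57 to 5.27 as single samples were left out.

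Over all kept cells 34 members were tested and none passed in edgeR, where 0.00955% of all genes rose and 0.0% fell. An unadjusted edgeR p under 0.05 was found for 15 of the 34 (12 higher, 3 lower), beside 11.6% of all genes. DESeq2 called 10 of 44 members higher and 1 lower, beside 2.24% and 0.562% of all genes with a UMI. The median log2 difference of the tested members was 0.60, beside -0.02 over all genes. IL1RL1 stood at 78.1 and 51.1 CPM against 10.0 and 4.03 CPM, IL1RN at 299.6 and 196 against 93.6 and 45.4 CPM, and IL34 at 16.3 and 25.4 against 4.31 and 6.13 CPM. The samples did not overlap for these 3 genes. For any gene named here or above, a permutation test of 2 samples against 2 cannot go below 0.333. The share of all genes without overlap was not counted.

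The difference of the injury effects between classes was also tested, in 3 pairs of classes that share samples. IL6ST differed between endothelial-like and epithelial-like cells (difference of log2 differences 1.50 ± 0.22 SE, edgeR adjusted p = 0.0331), 1 of 17 members tested, where 0.653% of all genes passed in that direction and 0.123% in the other. Between fibroblast-like and epithelial-like cells, IL1RN (2.82 ± 0.52 SE, edgeR adjusted p = 0.0401) and IL1B (1.95 ± 0.38 SE, edgeR adjusted p = 0.0414) passed, 2 of 19 members, against 1.61% and 0.572% of all genes. Whether the IL1B counts of fibroblast-like cells are background was not tested. This value therefore compares counts in these classes and is not read as a difference in expression. IL1RN had 290 UMIs in fibroblast-like cells, 1.11% of its total, against 61.8% in macrophage-like cells. Whether those 290 UMIs are background was likewise not tested. All 3 calls were lost without Injury_1 or without Injury_2. IL1B in epithelial-like cells of the normal samples rested on single cells, 1 with 132 of 155 UMIs in Normal_1 and 1 with 155 of 178 in Normal_2, and its difference turned to -1.14 once cells with high doublet scores were removed and to -0.56 with a mitochondrial limit of 10%. Between fibroblast-like and endothelial-like cells none of 20 members passed in edgeR, where 0.0453% and 0.0566% of all genes passed, and 2 had an unadjusted p under 0.05, beside 9.51% of all genes. In the endothelial-like against epithelial-like and the fibroblast-like against epithelial-like comparisons, 6 of 17 and 5 of 19 members had an unadjusted edgeR p under 0.05, beside 14.7% and 17.2% of all genes.

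Of 71 genes of receptor partners, JAK-STAT signalling and IL-1 and IL-17 signalling, 40 have a row under their symbol. In fibroblast-like, endothelial-like, macrophage-like, pericyte-like and smooth muscle-like cells, 34, 33, 25, 25 and 22 of them were tested and none passed in edgeR. In T cell-like cells, 1 of 28 passed, where 0.893% of all genes rose and 2.86% fell. This was CASP1, the protease that matures IL-1 beta (edgeR adjusted p = 0.0470). CASP1 had 61 and 25 UMIs in the injured against 1 and 0 in the normal samples. The ratio was 23.6, with an exact counting interval from 4.12 to 942. The CASP1 call was lost with cells carrying macrophage or endothelial markers removed, where 0 of 4752 genes passed in this class. That alternative was chosen after the data were seen, and the part of such cells in the CASP1 counts was not otherwise tested. In epithelial-like cells 1 of 27 passed, where 0.795% of all genes rose and 1.35% fell: NFKB1, a subunit of the transcription factor that IL-1 receptors activate, fell from 121 and 116 CPM in the normal to 52.4 and 43.8 CPM in the injured samples (edgeR adjusted p = 0.0288). In the DNASE1L3 HLA-DRA cluster 1 of 17 passed, where 0.0566% of all genes rose and 0.368% fell: SOCS2, a cytokine-induced brake on JAK-STAT signalling, with 45 and 51 UMIs in the injured against 0 and 1 in the normal samples (edgeR adjusted p = 0.0338). The SOCS2 ratio was 34.5, with an exact counting interval from 6.05 to 1378. All 5 T cell markers were higher in this cluster in both injured samples, with ZAP70, CD2 and THEMIS at 0 in the normal ones. All 6 fibroblast markers were lower. The part of these markers in the SOCS2 result was not tested.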

How the data were processed

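Rabbit bladder mucosa was dissociated and sequenced with 10x Chromium 3' v3 chemistry, 1 library per sample. The authors deposited UMI counts per gene and barcode as whole numbers from Cell Ranger 6.0.1, without normalization. The genome release is not given in the sources used here. Cells were kept from 500 UMIs and 200 genes upward with no more than 15% mitochondrial counts, integrated with Seurat 5.3.0 in R 4.3.3 without the members among 2000 variable genes, and clustered at resolution 0.8. Doublets were scored with Scrublet in scanpy 1.11.5 but not removed. Doublet-rich clusters, those with fewer than 3 raised markers and those led by markers of another class stayed unnamed. Counts were summed per sample and class and compared in edgeR 4.0.16 by its quasi-likelihood test (filterByExpr, TMM, Benjamini-Hochberg over all genes, threshold 0.05). The study describes the 2 samples of each group as biological replicates. DESeq2 1.42.0 was an alternative. Class order used log2(CPM + 10). Scripts were tested on simulated data. Intervals cover counting error only, with a floor of 3 counts. Members and gene lists were chosen with earlier results of these data known. Named were members past the threshold in any test, expressed members in their highest class, and IL1B, IL33, IL6, IL7R, IL1R1, IL6ST and IL1RN; values for other member and class pairs, and the genes shown with single-sample exclusions, were chosen after they were seen.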

Additional observations from a re-analysis of the deposited data

Results flagged for a closer look

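The difference of the injury effects between classes passed the edgeR test of the difference itself for 3 members. For IL6ST the effect in endothelial-like minus that in epithelial-like cells was 1.50 on the log2 scale (adjusted p = 0.0331). For IL1RN the effect in fibroblast-like minus that in epithelial-like cells was 2.82 (edgeR adjusted p = 0.0401), and for IL1B it was 1.95 (edgeR adjusted p = 0.0414). Whether the IL1B counts of fibroblast-like cells are background was not tested. The IL1B difference was -1.14 with high doublet scores removed and -0.56 with a mitochondrial limit of 10%. The fibroblast-like IL1RN counts were 290 UMIs, 1.11% of its total, and whether they are background was not tested. Groups of 2 samples are too small for a test of single samples that stand apart.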

How the results depend on the processing

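Over the 8 classes, the 4 calls higher in the injured samples became 11 with DESeq2, 18 with no filter on low counts, 2 with high doublet scores removed, 1 at resolution 0.3, and 0 with cells carrying markers of other classes removed, an alternative chosen after the data were seen. The 3 calls lower became 5 with DESeq2, 12 with no filter and 1 with a mitochondrial limit of 10%. Over all genes, 49 rose and 157 fell of 5485 in T cell-like cells with the main settings. They became 309 and 510 of 10908 with no filter, 14 and 76 of 5120 with high doublet scores removed, and 1 and 3 of 3899 at resolution 0.3. With cells carrying markers of other classes removed, 0 of 4752 passed. In epithelial-like cells, 56 rose and 95 fell of 7046. They became 463 and 483 of 12059 with no filter and 35 and 50 of 6211 with that mitochondrial limit. The 0 calls in all kept cells became 10 higher and 1 lower with DESeq2. The 3 differences between classes became 8 with no filter, and IL1B, fibroblast-like minus epithelial-like, turned to -1.14 with high doublet scores removed and to -0.56 with a mitochondrial limit of 10%. Leaving out each sample in turn gave 7 to 11 calls higher, 1 to 6 lower, 0 to 9 differences between classes and 15 to 17 members in 1 order; the lone sample of a group is then assumed to vary like the others. Calls over all genes changed in number in these fits too, and rose in most classes without a normal sample. Differences between fibroblast-like and epithelial-like cells over all genes rose without a normal sample and fell without an injured one. The changed counts of member calls are therefore not read as a result of the members alone. In T cell-like cells, the log2 difference of IL22 ranged from -5.18 to 7.99 and that of IL9 from -1.40 to 0.47 as single samples were left out, IL22 was 1.18 with a mitochondrial limit of 10%, and IL7R was -0.065 with cells carrying markers of other classes removed and -0.079 at resolution 0.3. The cause was not tested. Other named results kept their direction in the alternatives run for them. The first class changed for IL18RAP, to T cell-like, without Normal_1, without Normal_2 or with members kept for clustering, and under the last also for IL1RL1 and IL9, to mast cell-like. The test of macrophage-like against neutrophil-like cells was not run, since a sample had 5 neutrophil-like cells.

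With the replicate number as a block, calls higher per class numbered 6, calls lower 0, and calls in all kept cells 6 higher. Of the 7 member calls per class, IL1B in T cell-like cells remained under the block and the other 6 were lost. Over all genes, the block left 1 call higher and 0 lower of 5485 in T cell-like cells, and 36 and 48 of 7046 in epithelial-like cells. In fibroblast-like cells it gave 147 higher and 70 lower of 8829, and in all kept cells 192 and 28 of 10475. No source used here says that the numbers pair samples, and same-numbered samples deviated together with correlations from -0.0089 in T cell-like to 0.228 in all kept cells.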
